A study of Mus musculus with 18 samples.

Results

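The 34 genes described here are the mouse Wnt ligands and their receptors. They were chosen by symbol from 55335 gene identifiers and comprised 19 Wnt ligands, 10 Frizzled receptors and 5 co-receptors (Ryk, Ror1, Ror2, Lrp5 and Lrp6), each protein-coding. The rule uses symbols and no measured value, although results of these data were known when the genes were proposed. The cells were O9-1, a mouse cranial neural crest line with a wild-type genotype, cultured in osteoblast differentiation medium and profiled by polyA RNA-seq at day 2.5 (d2.5) and day 5 (d5). On each day 3 groups of 3 libraries were compared, which gave 18 libraries. The Ctrl+vehicle group received control siRNA and no FGF2, the Ctrl+FGF2 group received control siRNA and FGF2, and the Y/T dKD+FGF2 group received siRNA pools against Yap and Taz together with FGF2. All libraries therefore came from transfected cells of 1 line, and no knockdown was made without FGF2. The labels give each day a batch of its own, so that day and batch cannot be told apart, and they do not say whether replicates were separate cultures. The p-values therefore measure the spread between these libraries, which may be technical.

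Wnt proteins are lipid-modified secreted ligands that bind the cysteine-rich domain of Frizzled receptors on neighboring cells. When a Frizzled pairs with Lrp5 or Lrp6, the complex stabilizes beta-catenin, which enters the nucleus and acts with Tcf/Lef factors. Ror1, Ror2 and Ryk carry ligands such as Wnt5a into branches that do not depend on beta-catenin and that steer cell polarity and movement. In the skull, Wnt signaling is known for roles in the formation of cranial neural crest, in the suture mesenchyme and in osteoblast differentiation.

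Promoters are shown for 6 members picked after their values were seen, Wnt4, Fzd1, Ror1 and Ror2 for their FGF2 effects at d2.5 and Wnt10b and Fzd4 for their knockdown effects at d5. Other members with such effects, such as Fzd9 and Wnt6, are not shown. The sequences are from RefSeq, build GRCm38.p6, and each runs 5′ to 3′ on the strand of its gene from 250 bases before the start site to 50 after it. Sequences were used for 24 of the 34 members and for 13 of the 21 measurable ones. Capitals mark a match, on either strand, to GGAATG (the core bound by Tead, the partner of Yap and Taz), TGANTCA (the AP-1 core) or CTTTGA (the Tcf/Lef core). Of 32851 RefSeq promoters of the same length, 14.7% held GGAATG, 7.81% held TGANTCA and 16.0% held CTTTGA.
Wnt4, chr4:137277385-137277684, plus strand: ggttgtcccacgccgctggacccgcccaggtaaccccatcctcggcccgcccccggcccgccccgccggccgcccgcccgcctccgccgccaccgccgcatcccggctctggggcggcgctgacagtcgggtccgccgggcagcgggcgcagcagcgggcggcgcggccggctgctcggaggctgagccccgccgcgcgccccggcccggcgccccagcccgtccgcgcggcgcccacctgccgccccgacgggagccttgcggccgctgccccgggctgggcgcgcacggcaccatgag
Wnt10b, chr15:98778101-98778400, minus strand: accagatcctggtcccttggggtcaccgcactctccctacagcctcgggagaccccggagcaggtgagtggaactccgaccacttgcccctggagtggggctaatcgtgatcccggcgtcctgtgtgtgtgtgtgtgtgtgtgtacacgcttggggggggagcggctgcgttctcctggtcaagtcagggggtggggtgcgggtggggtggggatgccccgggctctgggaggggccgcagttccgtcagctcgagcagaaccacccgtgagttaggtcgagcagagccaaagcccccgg
Fzd1, chr5:4758167-4758466, minus strand: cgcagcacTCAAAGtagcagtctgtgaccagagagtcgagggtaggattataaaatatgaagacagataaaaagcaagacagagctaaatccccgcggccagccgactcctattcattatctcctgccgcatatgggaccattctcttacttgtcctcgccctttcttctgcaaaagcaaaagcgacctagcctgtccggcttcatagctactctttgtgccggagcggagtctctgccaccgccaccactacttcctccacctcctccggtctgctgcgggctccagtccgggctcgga
Fzd4, chr7:89404116-89404415, plus strand: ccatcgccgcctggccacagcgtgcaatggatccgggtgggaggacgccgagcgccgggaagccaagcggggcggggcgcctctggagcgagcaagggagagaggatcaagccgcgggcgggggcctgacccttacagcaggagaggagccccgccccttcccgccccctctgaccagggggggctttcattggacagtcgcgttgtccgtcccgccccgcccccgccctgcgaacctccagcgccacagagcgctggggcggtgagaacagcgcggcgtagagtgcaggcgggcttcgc
Ror1, chr4:100095541-100095840, plus strand: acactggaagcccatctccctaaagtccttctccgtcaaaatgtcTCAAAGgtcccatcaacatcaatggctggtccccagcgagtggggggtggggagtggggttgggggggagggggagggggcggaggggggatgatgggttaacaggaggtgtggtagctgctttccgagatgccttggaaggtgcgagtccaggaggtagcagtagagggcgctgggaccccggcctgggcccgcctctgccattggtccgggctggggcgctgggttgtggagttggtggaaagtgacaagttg
Ror2, chr13:53286075-53286374, minus strand: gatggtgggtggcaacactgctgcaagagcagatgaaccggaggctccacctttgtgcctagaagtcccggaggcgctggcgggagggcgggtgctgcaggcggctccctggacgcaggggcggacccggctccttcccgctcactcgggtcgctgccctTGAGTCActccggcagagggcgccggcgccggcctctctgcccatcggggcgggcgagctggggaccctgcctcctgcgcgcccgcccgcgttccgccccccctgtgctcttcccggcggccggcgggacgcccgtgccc
Fzd1 and Ror1 each held 1 match to CTTTGA, read on the opposite strand, with first bases at -242 and -205 from the start site. Ror2 held 1 match to TGANTCA, which began at -90. The Wnt4, Wnt10b and Fzd4 windows held no match to these letters. The Wnt4 window was 84.3% G and C, against 54.0% for Fzd1. Among the other measurable members with an entry, the 3 Wnt5b promoters held 1 match to each motif, whereas the windows of Wnt6, Wnt9a, Fzd5, Fzd7, Fzd9 and Ryk held none. A match of letters is a description of the window and was not tested for binding.

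Each library held 10377151 to 14698525 counts in genes, so that 3 counts, the limit that a count of 0 allows, equaled 0.193 to 0.305 CPM (counts scaled to library size) depending on the library. Levels are given as CPM after TMM normalization over all 18 libraries, as mean ± SD with n = 3, and levels of different genes are compared only as CPM per kb of exon. The siRNA targets were lower in the knockdown libraries, where Yap1 kept 51.9% of its Ctrl+FGF2 mean at d2.5 and 46.2% at d5, and Wwtr1 (the gene of Taz) kept 61.2% and 57.7%. Of 9 neural crest and mesenchyme markers, 7 or 8 reached 1 CPM in each group and Sox10 was at 0 in all of them. The summed CPM of 7 osteoblast markers ranged from 17100 to 17500 with vehicle, from 9150 to 9370 with FGF2 and from 10700 to 11200 with FGF2 and the knockdown at d2.5, and in the same order from 32300 to 34500, from 17800 to 19200 and from 24400 to 26100 at d5. Col1a1 and Spp1 held most of each sum, and the markers did not move together. With FGF2 the mean of Col1a1 went from 12600 to 2200 CPM at d2.5 and from 31900 to 16600 at d5. That of Spp1 rose from 4000 to 6910 and from 1300 to 1780. Runx2 and Sp7 fell with FGF2 at d2.5 and rose at d5, and Alpl, Ibsp and Bglap fell on both days. The 3 neuron markers summed to 20.2 to 23.5 CPM in Ctrl+vehicle and 10.2 to 12.3 CPM in Ctrl+FGF2 at d2.5, where Elavl3 and Rbfox3 were at 0. The summed endothelial, immune, epithelial and pluripotent markers stayed at or below 5.61 CPM in every library, and Myod1 and Myog were at 0. The part of these shifts in the results on Wnt genes was not tested.

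Ligands were scarce and receptors were plentiful in these cells. Of the 19 Wnt ligands, 7 were measurable, meaning that edgeR's filter on low counts kept them on at least 1 day, whereas 9 of the 10 Frizzleds and all 5 co-receptors were measurable. Wnt3, Wnt3a, Wnt7a, Wnt8a, Wnt8b, Wnt9b and Fzd10 had 0 counts in all 18 libraries. Wnt1 had 1 count in all, Wnt16 had 11, Wnt2 had 12, Wnt2b had 44, Wnt7b had 53 and Wnt11 had 91, and these were too low to test. Wnt5b, Wnt6 and Wnt10a passed the filter at d5 but not at d2.5. This left 18 members tested at d2.5 and 21 at d5.

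**Figure D1:**
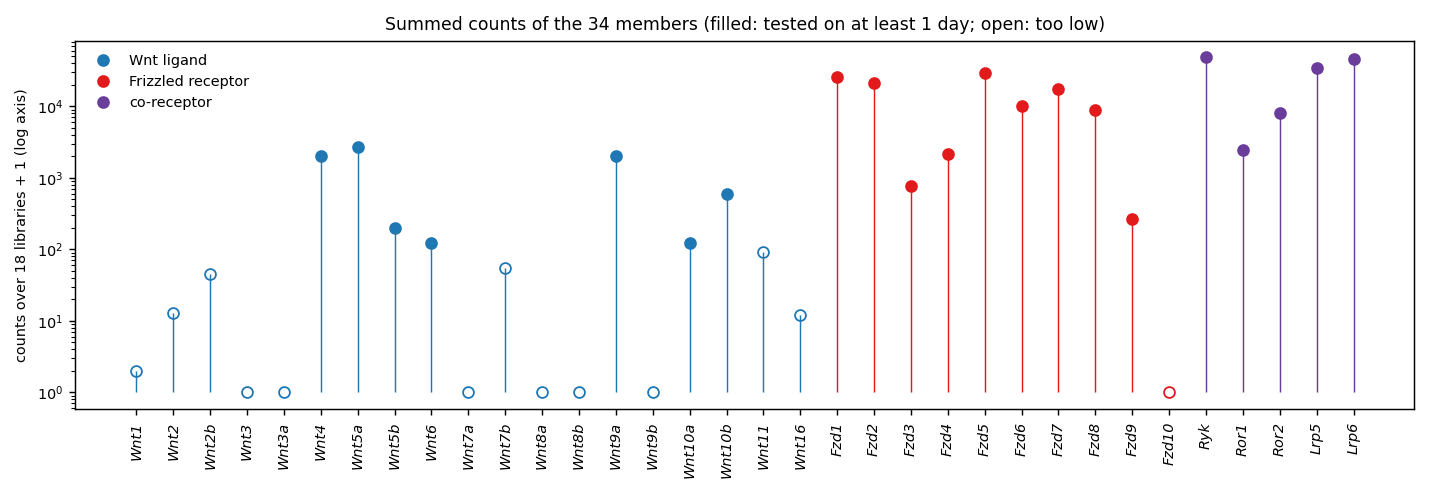
Summed counts over the 18 libraries plus 1 (vertical log axis) for each of the 34 members (horizontal axis), colored by class, with filled points for members tested on at least 1 day and open points for the others. Counts are not corrected for gene length and show only how many reads each member rests on, from 0 for the 7 members at the bottom to 48078 for Ryk.

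Several ligand genes lie side by side in the mouse genome. Their summed counts, which are not corrected for length, are given to show which of them were detected. Wnt10b (chromosome 15, 98770712 to 98778150, minus strand) had 588 counts, whereas Wnt1, 11706 bases away with no protein-coding gene between them, had 1. Wnt9a (chromosome 11, 59306928 to 59333552, plus strand) had 2012 counts, and its neighbor Wnt3a, 16175 bases away, had 0. Wnt9b and Wnt3, 24328 bases apart on the same chromosome, both had 0. Wnt6 and Wnt10a (chromosome 1, both on the plus strand and 6193 bases apart) had 123 and 122 counts. Coordinates are those of GENCODE M21 on GRCm38.

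The leading ligand differed between the groups. In Ctrl+vehicle at d2.5, Wnt4 stood at 5.97 ± 0.708 CPM per kb, which was 70.1% ± 4.47 of the summed ligand level, ahead of Wnt5a at 0.839 ± 0.115. In Ctrl+FGF2 at d2.5 the summed ligand level was 2.59 ± 0.288 CPM per kb against 8.50 ± 0.532 in Ctrl+vehicle. There Wnt5a led with 0.963 ± 0.147 CPM per kb, and Wnt4 made up 20.3% ± 1.01 of the sum. After the knockdown at d2.5 the sum was 3.04 ± 0.152 CPM per kb and Wnt5a again led, with 1.12 ± 0.121. At d5 Wnt9a led in all 3 groups, with 5.46 ± 0.652 CPM per kb with vehicle, 4.51 ± 0.533 with FGF2 and 6.48 ± 0.946 after the knockdown. Wnt5a was next in Ctrl+vehicle and Ctrl+FGF2, with 3.05 ± 0.15 and 2.48 ± 0.176 CPM per kb. In Y/T dKD+FGF2 the order after Wnt9a was Wnt4 with 2.31 ± 0.0233 and Wnt10b with 2.10 ± 0.231, which lay within their spread, and Wnt5a held 8.54% ± 0.831 of the sum.

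The leading Frizzled also differed between the groups. In Ctrl+vehicle at d2.5 Fzd2 stood at 21.6 ± 0.554 CPM per kb, Fzd1 at 17.2 ± 0.632 and Fzd5 at 16.6 ± 0.706, of which Fzd1 and Fzd5 lay within their spread. With FGF2 at d2.5, Fzd1 dropped to 4.18 ± 0.0822 CPM per kb, or 6.34% ± 0.0379 of the Frizzled sum, below Fzd5 at 19.9 ± 0.608, Fzd2 at 17.7 ± 0.186, Fzd7 at 10.6 ± 0.284 and Fzd6 at 9.91 ± 0.321. At d5 in Ctrl+vehicle, Fzd1 led with 64.8 ± 1.84 CPM per kb, or 39.1% ± 0.986 of the sum, followed by Fzd2 at 33.7 ± 0.652, Fzd7 at 30.1 ± 1.11 and Fzd5 at 18.1 ± 0.620. In Ctrl+FGF2 at d5 it stood at 34.8 ± 2.87, beside Fzd2 at 37.8 ± 2.05, and after the knockdown at 52.7 ± 4.17. Fzd7 lay above Fzd5 in these groups too, with 24.9 ± 1.64 against 16.7 ± 0.540 and 21 ± 0.585 against 18.9 ± 0.285. Fzd3, Fzd4 and Fzd9 were the lowest measurable Frizzleds in each group, with 0.127 to 2.28 CPM per kb. Among the co-receptors Ryk was highest in every group, from 42.8 to 57.5 CPM per kb, and Ror1 was lowest, from 0.276 to 3.92.

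**Figure D2:**
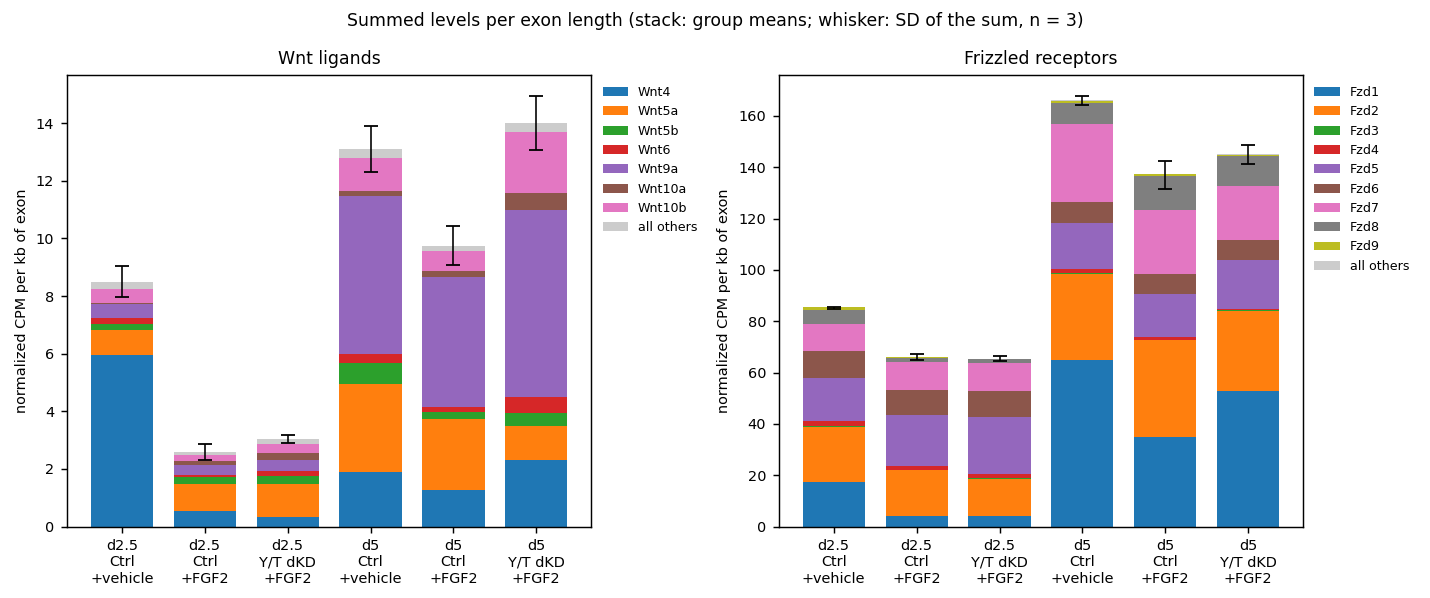
Summed level of the Wnt ligands (left) and Frizzled receptors (right) in CPM per kb of exon for the 6 groups, as stacked group means with gray for the members too low to test on either day and whiskers for the SD of the sum (n = 3). Wnt4 fills most of the d2.5 Ctrl+vehicle ligand bar and Wnt9a the largest share of the d5 bars.

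The comparison of Ctrl+FGF2 with Ctrl+vehicle asks what FGF2 did to the Wnt genes in cells given control siRNA. At d2.5 it lowered 12 of the 18 members tested, with Wnt4, Fzd1, Ror1, Fzd8 and Fzd9 falling most and Fzd5 alone rising. Of 18 members tested with edgeR's quasi-likelihood test and a Benjamini-Hochberg adjusted p under 0.05, 1 was called higher and 12 lower. Over all genes tested in this comparison 67.6% were called, 33.5% higher and 34.1% lower. The median log2 fold change of the members was -0.58, against 0.00 over all genes. By class, 2 of 4 ligands, 6 of 9 Frizzleds and 4 of 5 co-receptors were lower. In bulk libraries such as these, fewer cells that express a gene and less RNA per cell cannot be told apart.

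Wnt4, a ligand known for roles in kidney and gonad development and in bone, lay at 22.3, 28.2 and 24.7 CPM in the Ctrl+vehicle libraries of d2.5 and at 2.46, 1.89 and 2.27 CPM in the Ctrl+FGF2 libraries. The groups lay far apart, with the FGF2 mean at 8.81% of the vehicle mean. The log2 fold change was -3.51 ± 0.13 (SE), with an adjusted p of 1.2e-20 by edgeR. Wnt10b, a ligand that favors osteoblast over adipocyte fate, lay at 1.59, 1.61 and 1.70 CPM with vehicle and at 0.633, 0.727 and 0.668 with FGF2. It fell by 1.27 on the log2 scale (SE 0.28, edgeR adjusted p = 0.000226). Wnt9a, known for its part in joint formation, ranged from 1.35 to 2.21 CPM with vehicle and from 0.935 to 1.31 with FGF2, and its difference did not pass the test (log2 fold change -0.55, adjusted p = 0.0677 by edgeR). Wnt5a, the classical ligand of Ror2, ranged from 5.55 to 7.26 CPM with vehicle and from 6.33 to 8.62 with FGF2. Its groups overlapped, with a log2 difference of 0.20 ± 0.13 and an edgeR adjusted p of 0.189.

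Fzd1, a receptor that can signal through beta-catenin, lay at 69.4, 74.7 and 72.3 CPM with vehicle and at 17.8, 17.2 and 17.7 with FGF2 at d2.5. It fell by 2.05 on the log2 scale (SE 0.06, edgeR adjusted p = 1.3e-23). Fzd8 lay at 35.4, 30.7 and 33.1 CPM with vehicle and at 11, 10.3 and 8.62 with FGF2, with a log2 fold change of -1.74 (SE 0.09, edgeR adjusted p = 1.8e-17). The 2 receptors thus kept 24.3% and 30.2% of their vehicle means. Fzd9, which is close to the limit of detection, lay at 2.41, 1.61 and 2.86 CPM with vehicle and at 0.915, 0.582 and 0.735 with FGF2 (log2 fold change -1.60 ± 0.29, edgeR adjusted p = 1.4e-05). Fzd4, the receptor for the eye ligand norrin, lay at 16.1, 13.5 and 16.3 CPM with vehicle and at 9.99, 10.5 and 9.88 with FGF2 (-0.60 ± 0.10, edgeR adjusted p = 1.9e-06). Fzd3, a receptor of the planar polarity branch, lay at 3.31, 3.29 and 2.70 CPM with vehicle and at 1.97, 2.18 and 1.67 with FGF2 (-0.70 ± 0.21, edgeR adjusted p = 0.00473). Fzd2, with roles in palate and heart development, changed less, from 79.2 ± 2.03 to 64.8 ± 0.682 CPM. Fzd5 rose from 115 ± 4.88 to 138 ± 4.21 CPM (log2 fold change 0.25 ± 0.04, edgeR adjusted p = 1.1e-06). For Fzd6, which orients hair follicles, and Fzd7, the log2 differences were -0.08 ± 0.06 and 0.01 ± 0.05, and their groups overlapped.

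Ror1, a receptor tyrosine kinase-like co-receptor, lay at 8.69, 8.0 and 7.88 CPM with vehicle and at 2.46, 2.62 and 2.0 with FGF2 at d2.5. It fell by 1.81 on the log2 scale (SE 0.15, edgeR adjusted p = 7.2e-12). Its relative Ror2, needed for limb and skeletal patterning, lay at 39.1, 41.0 and 40.0 CPM with vehicle and at 19.6, 17.6 and 20 with FGF2, a fall of 1.08 (SE 0.07, edgeR adjusted p = 4.8e-15). The 3 FGF2 libraries lay below all vehicle libraries for both genes, which kept 28.8% and 47.6% of their vehicle means. Lrp5, known for its effect on bone mass, lay at 164, 155 and 152 CPM with vehicle and at 116, 116 and 113 with FGF2 (-0.46 ± 0.04, edgeR adjusted p = 3.3e-12). Lrp6 went from 171 ± 5.85 to 148 ± 1.86 CPM, and Ryk, an atypical kinase that guides axons away from Wnt5a, from 201 ± 2.98 to 194 ± 3.70, of which the first passed the test (edgeR adjusted p = 3.2e-06) and the second did not (0.0981).

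**Figure D3:**
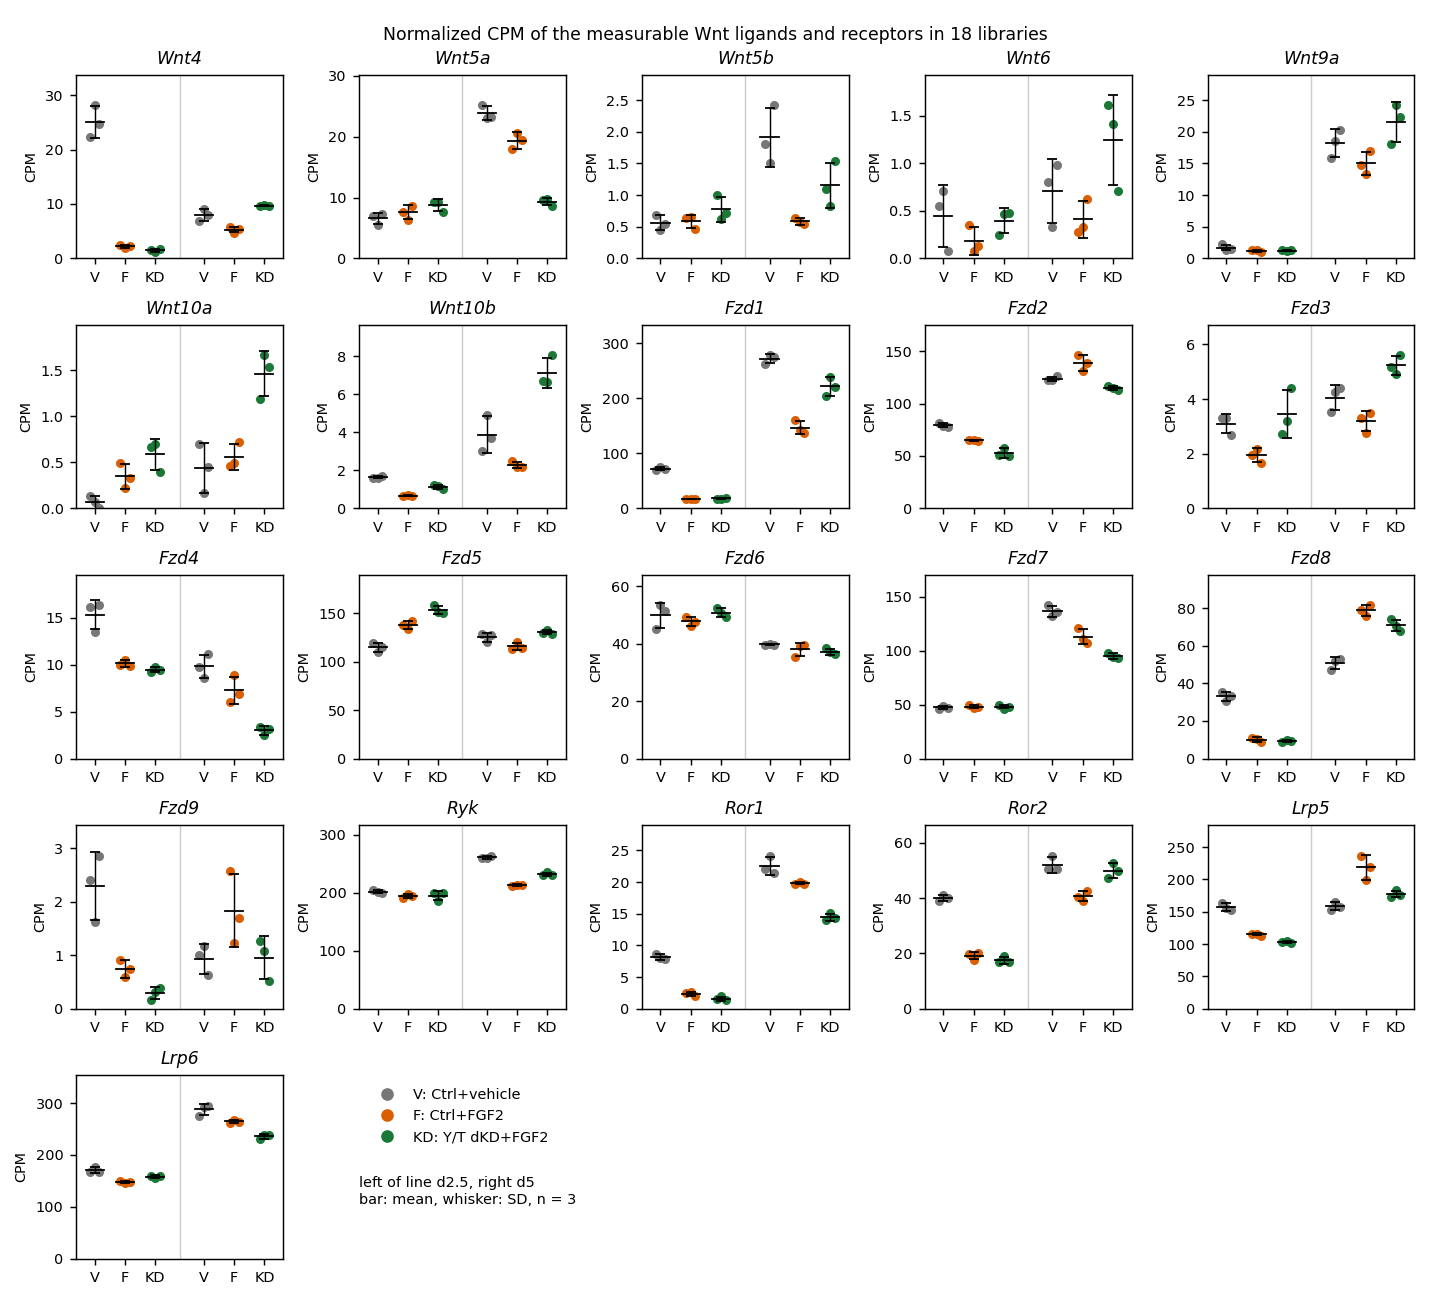
Normalized CPM (vertical axes, from 0) of the 21 measurable members in each of the 18 libraries, as points, with the group mean as a bar and the SD as a whisker, for d2.5 left and d5 right of the gray line. Wnt4 stood at 25.1 CPM in Ctrl+vehicle at d2.5 and at or below 9.69 CPM in the mean of every other group, and Wnt5a at d5 fell from 19.4 to 9.32 CPM with the knockdown.

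At d5 FGF2 lowered 4 of the 7 ligands tested, and its effects on the receptors had both signs. Of 21 members tested, 4 were higher (Fzd2, Fzd8, Fzd9 and Lrp5) and 10 lower (the ligands Wnt4, Wnt5a, Wnt5b and Wnt10b, the Frizzleds Fzd1, Fzd4 and Fzd7, and Ryk, Ror2 and Lrp6). Over all genes 47.2% were called, 23.5% higher and 23.7% lower, and the median log2 fold change was -0.27 for the members and 0.02 over all genes. Wnt5b, a close relative of Wnt5a, had the largest fall. It lay at 1.81, 1.5 and 2.42 CPM with vehicle and at 0.643, 0.569 and 0.538 with FGF2. This was a fall of 1.68 (SE 0.33, edgeR adjusted p = 0.000439) in a gene with 199 counts over all libraries. Wnt4 lay at 6.93, 9.16 and 7.89 CPM with vehicle and at 5.78, 4.72 and 5.38 with FGF2 (-0.59 ± 0.14, edgeR adjusted p = 0.00184). Wnt10b lay at 3.01, 4.91 and 3.68 CPM with vehicle and at 2.48, 2.2 and 2.15 with FGF2 (-0.77 ± 0.21, edgeR adjusted p = 0.006). The call for Wnt10b was lost without Ctrl+vehicle replicate 2 (-0.55, edgeR adjusted p = 0.0543). Wnt5a lay at 25.2, 23.1 and 23.3 CPM with vehicle and at 18, 20.7 and 19.4 with FGF2, a smaller fall of 0.28 (SE 0.08, edgeR adjusted p = 0.00917). Wnt9a, Wnt6 and Wnt10a did not pass the test, with log2 differences of -0.27, -0.74 and 0.39. For Wnt9a the edgeR adjusted p of 0.0733 was under 0.05 with some alternatives, such as the replicate block (0.0424) and no filter on low counts (0.0244).

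Among the receptors at d5, Fzd1 lay at 263, 278 and 274 CPM with vehicle and at 160, 142 and 137 with FGF2 (log2 fold change -0.89 ± 0.06, edgeR adjusted p = 1.1e-09). Fzd8 went the other way, from 47.0, 51.8 and 53.0 CPM to 79.3, 75.7 and 81.5 (0.65 ± 0.06, edgeR adjusted p = 4.3e-08). Lrp5 likewise rose, from 153, 165 and 157 CPM to 237, 199 and 220 (0.48 ± 0.05, edgeR adjusted p = 9.7e-07). Fzd9 lay at 1.00, 1.17 and 0.628 CPM with vehicle and at 2.57, 1.22 and 1.70 with FGF2. Its call (0.96 ± 0.36, edgeR adjusted p = 0.035) was lost with DESeq2 (0.106) and without Ctrl+vehicle replicate 1 or 3 or Ctrl+FGF2 replicate 1 or 3 (0.64 to 1.0). Fzd7 fell from 136 ± 5.01 to 113 ± 7.43 CPM and Ryk from 261 ± 2.44 to 214 ± 1.40. Fzd4 lay at 9.74, 8.57 and 11.1 CPM with vehicle and at 6.06, 8.87 and 6.82 with FGF2. These groups overlapped, and the call (-0.41 ± 0.15, edgeR adjusted p = 0.0335) was lost with DESeq2 (0.0837) and without Ctrl+vehicle replicate 1 or 3 or Ctrl+FGF2 replicate 1 or 3 (-0.41 to -0.30). Ror2 fell from 52.1 ± 2.91 to 40.7 ± 1.78 CPM, and Ror1, at 22.6 ± 1.46 and 19.8 ± 0.188 CPM, did not pass the test (edgeR adjusted p = 0.066). Lrp6 had a call of -0.11 ± 0.04, which was lost with upper-quartile scaling (-0.08) and without Ctrl+vehicle replicate 2 or 3 or Ctrl+FGF2 replicate 1 or 3 (-0.11 to -0.09).

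The FGF2 effect was compared between the days by an interaction test over all 18 libraries, which contrasts differences within a day. Of the 21 members tested 13 were called, and over all genes 60.9% were called, so that the 2 shares were near each other. Fzd8, Fzd9, Lrp5 and Fzd2 fell with FGF2 at d2.5 and rose at d5, with differences of 2.36 ± 0.10, 2.53 ± 0.47, 0.91 ± 0.07 and 0.45 ± 0.07 in log2 fold change (edgeR adjusted p = 5.6e-18, 2.8e-05, 1e-12 and 1.1e-06). Wnt4, Fzd1, Ror1 and Ror2 had a smaller fall at d5 than at d2.5, or for Ror1 one that did not pass the test, with differences of 2.89 ± 0.21, 1.14 ± 0.09, 1.60 ± 0.16 and 0.71 ± 0.09. Wnt5a, Wnt5b, Fzd5, Fzd7 and Ryk differed in the other direction, by -0.51, -1.75, -0.38, -0.29 and -0.24. The difference of Wnt5b had an SE of 0.51, and its d2.5 part rests on counts too low to test on that day. For Wnt10b the difference was 0.48 ± 0.34, which did not pass the test (edgeR adjusted p = 0.267).

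**Figure D4:**
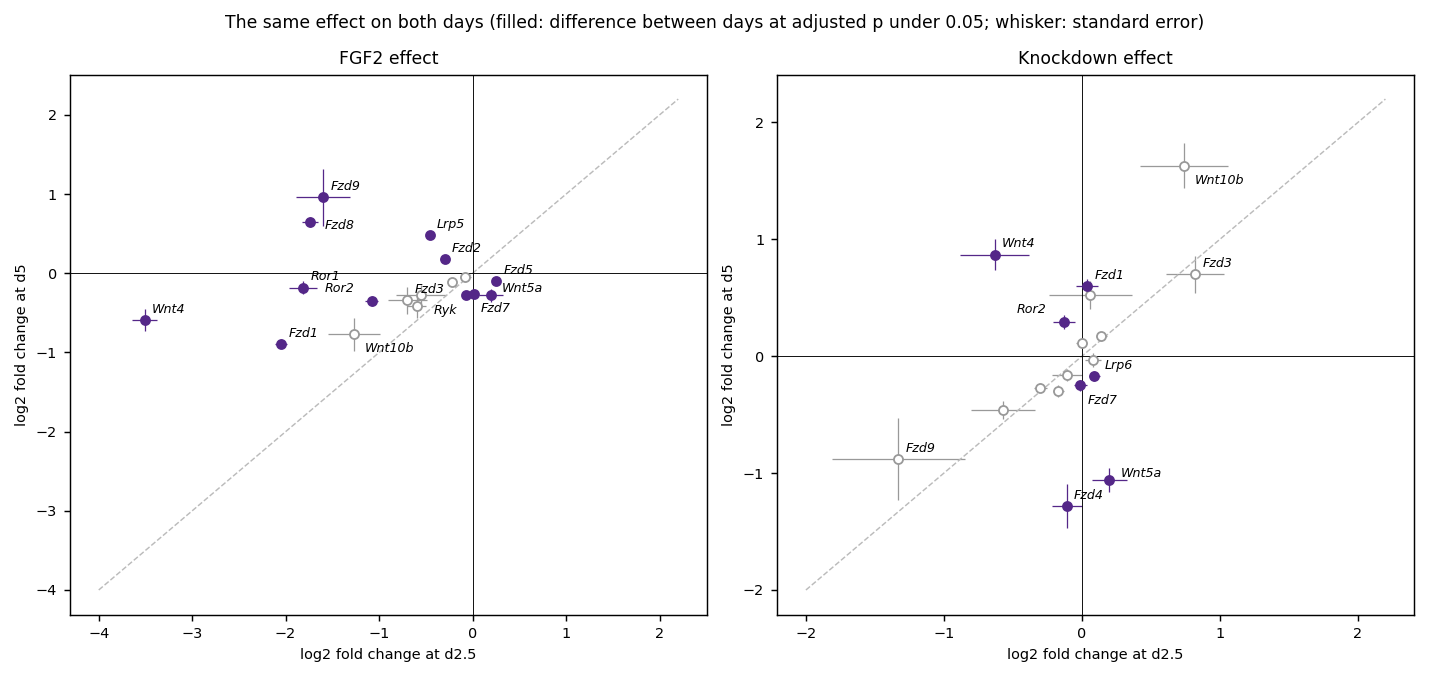
The log2 fold change of each member tested on both days at d2.5 (horizontal axis) and d5 (vertical axis) for FGF2 (left) and the knockdown (right), with standard errors as whiskers, a dashed line of equal effects and filled points where the difference between days passed the test. For FGF2, Wnt4 sits at -3.51 and -0.59 and Fzd8 at -1.74 and 0.65. For the knockdown, Wnt5a and Fzd4 sit near 0 at d2.5 and at -1.06 and -1.28 at d5.

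The comparison of Y/T dKD+FGF2 with Ctrl+FGF2 asks what lowering Yap and Taz changed in the presence of FGF2. At d2.5, 2 of 18 members rose (Fzd3 and Fzd5) and 3 fell (Fzd2, Fzd9 and Lrp5), and none of the 4 ligands tested passed. Over all genes 24.5% were called, 10.8% higher and 13.6% lower, so that the share of members called was near that of genes in general. Leaving out Y/T dKD+FGF2 replicate 1 or replicate 3 took the number of members called from 5 to 3. Fzd3 lay at 1.97, 2.18 and 1.67 CPM in Ctrl+FGF2 and at 2.73, 3.19 and 4.42 with the knockdown (log2 fold change 0.82 ± 0.21, edgeR adjusted p = 0.00476), and without Y/T dKD+FGF2 replicate 3 its adjusted p was 0.0769. Fzd2 lay at 65.2, 65.2 and 64.0 CPM in Ctrl+FGF2 and at 50.7, 58.0 and 49.9 with the knockdown (-0.30 ± 0.05, edgeR adjusted p = 9.3e-05). Fzd9 lay at 0.165, 0.311 and 0.394 CPM with the knockdown, near the limit of detection. Its call (-1.33 ± 0.48, edgeR adjusted p = 0.0402) was lost in the fit of all 18 libraries (0.0681) and without Ctrl+FGF2 replicate 1 or 3 or any 1 knockdown replicate (-1.61 to -1.07). Lrp5 changed by -0.17 ± 0.04, and Fzd5 by 0.14 ± 0.04, a call lost without Ctrl+FGF2 replicate 2 or Y/T dKD+FGF2 replicate 1 (0.12 for both). Wnt4 lay at 1.49, 1.17 and 1.66 CPM with the knockdown, below the 3 Ctrl+FGF2 libraries (-0.63 ± 0.25, edgeR adjusted p = 0.0657). Wnt10b lay at 1.24, 1.17 and 1.03 CPM, above them (0.74 ± 0.32, edgeR adjusted p = 0.0939). Neither passed the test.

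At d5 the knockdown moved most of the Wnt genes, and among the ligands it raised all but Wnt5a of those called. Of 21 members tested, 10 were higher and 8 lower. Over all genes 31.7% were called, 15.6% higher and 16.1% lower, and the median size of the log2 fold change was 0.52 for the members and 0.15 over all genes. By class, 5 ligands were higher and 1 lower of 7, 3 Frizzleds were higher and 4 lower of 9, and 2 co-receptors were higher and 3 lower of 5. Of the ligands called higher, Wnt10a passed the filter on low counts only through the knockdown libraries. The Ctrl+FGF2 libraries serve both this comparison and the FGF2 comparison of the same day, so the effects in one are not independent of those in the other.

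Among the 7 ligands tested, the rise of Wnt10b to 313% and that of Wnt6 to 304% of the Ctrl+FGF2 mean lay within error of each other on the log2 scale. Wnt10b lay at 2.48, 2.2 and 2.15 CPM in Ctrl+FGF2 and at 6.71, 6.64 and 8.04 with the knockdown (log2 fold change 1.63 ± 0.19, edgeR adjusted p = 2.8e-06). All 3 knockdown libraries also lay above the Ctrl+vehicle libraries of that day, whose mean was 3.87 ± 0.964 CPM. Wnt6 and its neighbor Wnt10a rose from low levels. Wnt6 lay at 0.275, 0.325 and 0.628 CPM in Ctrl+FGF2 and at 1.61, 1.41 and 0.712 with the knockdown (1.61 ± 0.46, edgeR adjusted p = 0.0112), and without Y/T dKD+FGF2 replicate 1 the adjusted p was 0.066. Wnt10a, a ligand of tooth and skin appendage development, lay at 0.459, 0.488 and 0.718 CPM in Ctrl+FGF2 and at 1.19, 1.66 and 1.53 with the knockdown (1.37 ± 0.37, edgeR adjusted p = 0.00802), with an adjusted p of 0.0627 by DESeq2. These 2 genes rest on 43 and 49 counts in the knockdown libraries together. Wnt10a lay at or below 0.718 CPM in every Ctrl+vehicle and Ctrl+FGF2 library of d5. It passed the filter on low counts through the group in which it was high, so its call is not independent of that filter. Wnt4 lay at 5.78, 4.72 and 5.38 CPM in Ctrl+FGF2 and at 9.60, 9.79 and 9.67 with the knockdown (0.87 ± 0.13, edgeR adjusted p = 7.2e-05). Wnt9a lay at 14.8, 13.3 and 16.9 CPM in Ctrl+FGF2 and at 18.1, 24.2 and 22.4 with the knockdown (0.52 ± 0.12, edgeR adjusted p = 0.00232). For Wnt5b, at 1.10, 0.830 and 1.53 CPM with the knockdown, the difference of 0.94 ± 0.37 did not pass the test (edgeR adjusted p = 0.064).

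Wnt5a moved against the other ligands tested. It lay at 18, 20.7 and 19.4 CPM in Ctrl+FGF2 and at 9.52, 9.79 and 8.65 with the knockdown at d5, or 48.1% of the Ctrl+FGF2 mean. The log2 fold change was -1.06 ± 0.10, with an edgeR adjusted p of 1.7e-07. Fzd4 fell most among the receptors, from 6.06, 8.87 and 6.82 CPM to 3.40, 2.49 and 3.15, or 41.6% of the Ctrl+FGF2 mean (-1.28 ± 0.19, edgeR adjusted p = 4.7e-05). Both genes lay below every Ctrl+FGF2 and Ctrl+vehicle library of d5. Fzd7 was also lower, from 121, 111 and 107 CPM to 98.1, 94.0 and 93.1 (-0.25 ± 0.05, edgeR adjusted p = 0.000812), as was Ror1, from 19.7, 20 and 19.7 CPM to 14.0, 15.1 and 14.3 (-0.46 ± 0.08, edgeR adjusted p = 0.000357). Fzd2, Lrp5 and Lrp6 fell by 0.27, 0.30 and 0.17 on the log2 scale. Fzd8, at 78.8 ± 2.90 and 70.8 ± 3.04 CPM, had a call of -0.16 ± 0.05 that was lost with DESeq2 (adjusted p = 0.098) and without Ctrl+FGF2 replicate 1 or 3 or Y/T dKD+FGF2 replicate 2 or 3 (-0.16 to -0.13).

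The receptors that rose with the knockdown at d5 were Fzd1, Fzd3 and Fzd5, with Ror2 and Ryk among the co-receptors. Fzd1 went from 160, 142 and 137 CPM to 204, 239 and 221 (0.60 ± 0.06, edgeR adjusted p = 3.1e-07), between the Ctrl+FGF2 and the Ctrl+vehicle libraries. Fzd3 went from 3.31, 2.77 and 3.50 CPM to 5.18, 4.90 and 5.6 (0.70 ± 0.16, edgeR adjusted p = 0.00304). Ror2 went from 40.3, 39.1 and 42.6 CPM to 47.2, 52.6 and 49.7 (0.29 ± 0.06, edgeR adjusted p = 0.00131). Fzd5 rose from 116 ± 3.74 to 131 ± 1.97 CPM. Ryk rose from 214 ± 1.40 to 231 ± 2.76 CPM, and its call (0.11 ± 0.03, edgeR adjusted p = 0.0189) was lost with no filter on low counts (0.059) and without Ctrl+FGF2 replicate 3 or Y/T dKD+FGF2 replicate 1 or 2 (0.10 to 0.12). Fzd6 changed by -0.03 ± 0.06, the only measurable Frizzled with no call in any of the 6 comparisons within a day. Fzd9 had a difference of -0.88 ± 0.35 that did not pass the test (edgeR adjusted p = 0.0644).

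**Figure D5:**
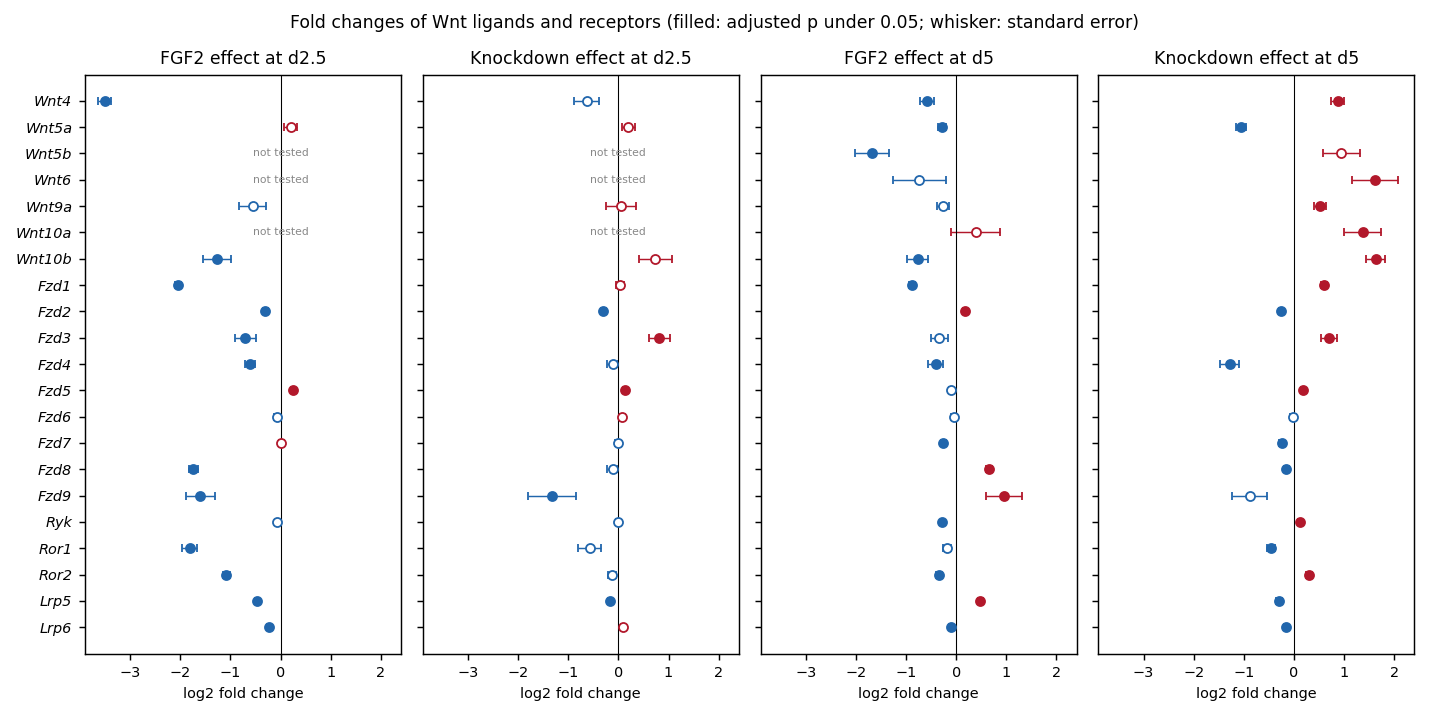
The log2 fold change (horizontal axes) of each measurable member with its standard error, for FGF2 and for the knockdown on each day, with red for higher, blue for lower and filled points for an edgeR adjusted p under 0.05. At d2.5 the FGF2 panel has 12 filled points left of 0 and 1 right of it, and the knockdown panel has 3 and 2. At d5 the FGF2 panel has 10 and 4, and the knockdown panel has 8 and 10.

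The knockdown effect differed between the days for 7 of the 21 members, where 20.9% of all genes were called. Wnt5a and Fzd4 had their fall at d5, with differences of -1.26 ± 0.17 and -1.18 ± 0.21 in log2 fold change (edgeR adjusted p = 1.6e-06 and 0.000145). Wnt4, Fzd1 and Ror2 were higher with the knockdown at d5, with differences of 1.5 ± 0.28, 0.56 ± 0.11 and 0.41 ± 0.10. Fzd7 and Lrp6 differed by -0.24 and -0.26. For Wnt10b the difference of 0.89 ± 0.37 did not pass the test (edgeR adjusted p = 0.102), so that its rise at d5 was not shown to differ from its value at d2.5.

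The comparison of Y/T dKD+FGF2 with Ctrl+vehicle shows where the Wnt genes stood with both changes made. At d2.5, 2 of 18 members were higher (Wnt5a and Fzd5) and 10 lower, where 69.8% of all genes were called, 34.1% higher and 35.7% lower. Wnt4 stood at 1.44 ± 0.250 CPM against 25.1 ± 2.97 (log2 fold change -4.14 ± 0.15, edgeR adjusted p = 4.4e-21). Wnt5a stood at 9.27, 9.32 and 7.65 CPM against 6.90, 5.55 and 7.26 (0.40 ± 0.13, edgeR adjusted p = 0.00899), a call lost without Ctrl+vehicle replicate 2 (0.0682). At d5, 4 of 21 were higher (Wnt10a, Wnt10b, Fzd8 and Lrp5) and 8 lower, where 41.8% of all genes were called, 20.7% higher and 21.1% lower. Wnt10b and Wnt10a stood 0.86 ± 0.17 and 1.76 ± 0.40 above vehicle on the log2 scale, and Wnt5a and Fzd4 had log2 fold changes of -1.34 ± 0.09 and -1.69 ± 0.18. Of these, Wnt10a passed the filter on low counts through the knockdown libraries only. Wnt4 and Ror2 did not differ from vehicle by the test, with log2 differences of 0.28 ± 0.12 and -0.06 ± 0.06. Wnt5b had a call of -0.74 ± 0.29 (edgeR adjusted p = 0.047) that was lost with DESeq2 (0.216) and without any 1 library but Ctrl+vehicle replicate 2 and Y/T dKD+FGF2 replicate 3 (-0.77 to -0.53). The call of Lrp5 (0.17 ± 0.05) was lost without Ctrl+vehicle replicate 3 (0.17) or Y/T dKD+FGF2 replicate 2 (0.15).

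The other genes of the pathway were described by lists, which share some genes. Notum, Znrf3 and Tcf7 stand among the common beta-catenin targets as well as in another list. The counts below stand beside shares of all genes called of 67.6% for FGF2 at d2.5, 47.2% for FGF2 at d5 and 31.7% for the knockdown at d5, and nothing particular to a list was read from them. In secretion and release, FGF2 lowered all 5 genes tested at d2.5, among them Porcn, which attaches the lipid to Wnt proteins (-1.45), and Wls, which carries them to the cell surface (-1.38). At d5, 1 rose (Porcn, 0.60) and 3 fell, among them Wls (-0.64). The knockdown at d5 raised 2, Wls (0.52) and Notum (0.96), an enzyme that removes the lipid, and lowered 2, among them the glypican Gpc4 (-0.59). In the R-spondin axis, whose members set in either direction how many Frizzleds stay at the cell surface, FGF2 lowered 3 of 4 genes tested at d2.5. It raised the other, Znrf3 (0.69), and lowered 4 of 5 at d5. Rspo2 fell on both days (-4.05, from 1.68 to 0.0914 CPM, and -1.48, from 7.12 to 2.49 CPM). At d2.5 it passed the filter on low counts through the vehicle libraries only, so that fall is not independent of the filter. Its FGF2 mean on that day lay below the level of 3 counts. Of the R-spondin receptors, Lgr4 fell by 1.91 on the log2 scale at d2.5.

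Of the secreted antagonists, 6 were tested. FGF2 raised 1 at d2.5, Dkk2 (5.55), and lowered 5, among them Frzb (-5.49) and Wif1 (-3.84), which bind Wnt proteins directly. At d5 it raised 3 and lowered 1, Wif1 (-5.24), and the knockdown at d5 raised 2, among them Wif1 (2.92), and lowered 3, among them Frzb (-0.56) and Sfrp1 (-0.39). Inside the cell, 3 of 15 beta-catenin branch genes rose and 6 fell with FGF2 at d2.5, with Tcf7l1 (-1.62) and Tcf7 (-0.97) falling most. At d5, 6 rose and 3 fell, and Tcf7l1 rose by 0.68. In the planar polarity branch 4 of 10 rose and 5 fell at d2.5, where the formin Daam2 fell by 1.55, and 5 of 9 rose and 2 fell at d5, where it rose by 0.88. Of the common beta-catenin targets, 3 of 7 rose and 3 fell with FGF2 at d2.5, and these included Axin2 (-1.73) and the cyclin Ccnd1 (3.0). At d5, 0 of 8 rose and 5 fell, including Axin2 (-1.42), Nkd2 (-2.35) and Apcdd1 (-1.57). The knockdown at d5 raised 4 of these 8 and lowered 2, with Nkd1 falling by 1.58.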

How the data were processed

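The deposited files hold whole-number read counts per gene, made by the authors with no normalization, in 1 table per library with unstranded, forward and reverse columns. The submitters' processing notes name FastQC, STAR, Picard, featureCounts and the mm10 build, and versions are not given in the sources used here. The reverse column held 96.04% to 96.64% of stranded gene counts and was used. Rows naming no gene, 26.96% to 34.44% of counts, were left out. Identifiers were matched to GENCODE M21, with 55154 of 55335 found. Genes that overlap a member on the opposite strand, such as Fbxl14 with Wnt5b, are counted apart in the reverse column. Fzd3, Ryk and Ror1 also overlap annotated genes on their own strand, which the strand of a read cannot separate.

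Counts were fitted with edgeR 4.0.16 in R 4.3.3 (TMM, filterByExpr, quasi-likelihood test, Benjamini-Hochberg over all tested genes, threshold 0.05), separately for the 9 libraries of each day and, for the interactions, over all 18. Standard errors were taken as log2 fold change over root F, without sign. DESeq2 1.42.0, other scalings and filters, unstranded counts, other sets of libraries, a replicate block and leaving out each library were alternatives, and the fit was tested on simulated data. Replicates differed by more than sampling noise (chi-square per degree of freedom 1.249 to 6.412). Intervals and limits from counts cover counting error only. Values in every library are given for measurable members with a log2 fold change of at least 0.5 and a call within a day. From each pathway list at most 3 called genes per comparison are named. The members and lists were chosen with earlier results of these data known.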

Additional observations from a re-analysis of the deposited data

Results flagged for a closer look

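The FGF2 effect on 13 of the 21 members tested differed between the days by edgeR's interaction test (adjusted p under 0.05). It is given as the log2 fold change at d5 minus that at d2.5. Over all genes 60.9% were called, so that the share of members called was near that of genes in general. The difference was positive for Wnt4 (2.89), Fzd9 (2.53), Fzd8 (2.36), Ror1 (1.60), Fzd1 (1.14), Lrp5 (0.91), Ror2 (0.71) and Fzd2 (0.45). It was negative for Wnt5b (-1.75, SE 0.51), Wnt5a (-0.51), Fzd5 (-0.38), Fzd7 (-0.29) and Ryk (-0.24). Wnt5b was too low to test at d2.5 alone. The knockdown effect on 7 of the 21 members differed in the same way, where 20.9% of all genes did. That difference was positive for Wnt4 (1.5), Fzd1 (0.56) and Ror2 (0.41), and negative for Wnt5a (-1.26), Fzd4 (-1.18), Lrp6 (-0.26) and Fzd7 (-0.24). Each difference contrasts effects within a day, and each day was its own batch, so that a change of the effect with the batch and one with the day cannot be told apart.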

How the results depend on the processing

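Of 3117 values of single members under the alternatives, 3033 kept their side of the threshold, 50 lost a call and 34 gained one. Of those called in the main fit or the alternative, 0 changed direction. Direction was not compared where neither fit made a call. Among the 34 were values of Wnt9a for FGF2 at d5, Wnt4 for the knockdown at d2.5 and Wnt5b and Fzd9 for the knockdown at d5. DESeq2 gave no adjusted p for 6 values, which stand outside the 3117. Members that an alternative's own filter left out stand outside them too. With at least 10 counts in every library, 11 of 13 calls for FGF2 at d2.5 were kept, and 12 of 14 at d5. For the knockdown 4 of 5 were kept at d2.5 and 16 of 18 at d5. The other calls were of members that this filter left out. The number of members called with the knockdown at d2.5 was 3 to 6 when 1 library was left out, against 5, and it was 3 without Y/T dKD+FGF2 replicate 1 or 3. The other counts ranged from 13 to 14 for FGF2 at d2.5, from 11 to 15 at d5, from 16 to 19 for the knockdown at d5, and from 11 to 12 and 10 to 13 for the knockdown with FGF2 against vehicle on the 2 days. Same-numbered libraries shared little of their deviation (r from -0.092 to 0.192 over 18 pairs, 2 of them over 0.1). Those 2 were Ctrl+vehicle with Ctrl+FGF2 at d5, replicates 1 and 2 (0.168 and 0.192). The crossed pairs of these libraries stood at -0.16 and -0.188. Whether the numbers pair the samples was therefore not settled, and the main fit did not pair them. With the replicate block the 8 counts were 13, 5 and 12 at d2.5, 15, 20 and 13 at d5, and 13 and 7 for the differences between days. No scaling moved the median of all genes by over 0.1 on the log2 scale. Depth limits the low ligands. Without the filter on low counts, Wnt10a had 15 counts with FGF2 and 3 with vehicle at d2.5, a ratio of 5.00 (95% interval 1.42 to 27.0), Wnt11 had 5 and 23, a ratio of 0.217 (0.0646 to 0.585), and with the knockdown at d5 Wnt7b had 16 against 3, a ratio of 5.44 (1.56 to 29.1). All 3 passed edgeR's test when the filter did not leave them out.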
